A study of Mus musculus with 4 samples.

Results

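The actin cytoskeleton and migration machinery was examined as a group of 54 mouse genes, taken by symbol from an expression table of 18021 genes. The list covers actin and its monomer-binding proteins, the Arp2/3 complex and its activators, filament bundlers, myosins, and the proteins that tie filaments to membranes and adhesions. All 54 were found and all reached a mean of 1 FPKM over the libraries, the level required for testing. FPKM is fragments per kilobase of transcript per 1e6 fragments, so levels can be compared between genes per unit length.

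Mature dendritic cells were made from bone marrow of C57BL/6 mice, and every group shares the same preparation. Cells were grown for 5 days with GM-CSF and IL4, matured with LPS at 100 ng/ml for 24 h, and transfected with a control siRNA (si-NC) or an siRNA against the long non-coding RNA lnc-Dpf3 (si-Lnc-Dpf3). For the last 12 h they received both CCR7 ligands, CCL19 with CCL21 (CCR7L), or none (Med). This gives 4 groups, si-NC/Med, si-NC/CCR7L, si-Lnc-Dpf3/Med and si-Lnc-Dpf3/CCR7L, each measured as 1 library, and FPKM values are listed in that order below. No difference between 2 single libraries has a replicate check. Levels of lnc-Dpf3 were not analysed here, and its knockdown is taken from the labels.

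Migrating cells push their front forward by assembling actin filaments. Profilin and thymosins hold the pool of free actin, the Arp2/3 complex starts branches when WASP or WAVE proteins activate it, and cofilin, gelsolin and coronins take filaments apart. Mature dendritic cells are known for long actin-rich dendrites bundled by fascin, and CCR7 guides them along CCL19 and CCL21 to lymph nodes.

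The libraries were close in depth, at about 19.6 to 20.1 in units of 1e6 reads as judged from the spacing of low FPKM values, and 10997 to 11075 genes reached 1 FPKM. At that depth the 95% counting error on a ratio between libraries was at most 1.15-fold for any member (Wasl, about 390 reads) and had a median of 1.03-fold, which covers counting error only. Dendritic cell markers were all present, from 10.4 FPKM for Zbtb46 to 2500 FPKM for Cd74, and Ccr7 measured 808, 681, 685 and 615 FPKM. Of 14 neutrophil markers, 13 passed the filter and none was at 0, with a summed level of 9338, 9712, 13777 and 13913 FPKM. Summed macrophage markers measured 303 to 376 FPKM and summed mast cell and basophil markers 395 to 456 FPKM. Summed stromal markers stayed between 3.4 and 5.09 FPKM, with Col1a1, Col1a2, Pdgfra, Dcn and Lum under 1 FPKM throughout. In such bulk RNA, fewer cells of a type and less RNA per cell cannot be told apart.

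The members made up a sizeable share of the messenger pool. Their summed FPKM was 26658, 28366, 25077 and 28857, which is 5.41%, 5.74%, 5.28% and 5.76% of all FPKM in the library. Both CCR7L libraries were above both Med libraries. Most of that total came from 6 genes for actin and its monomer-binding proteins, which summed to 15365, 16638, 14097 and 16939 FPKM.

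**Figure D1:**
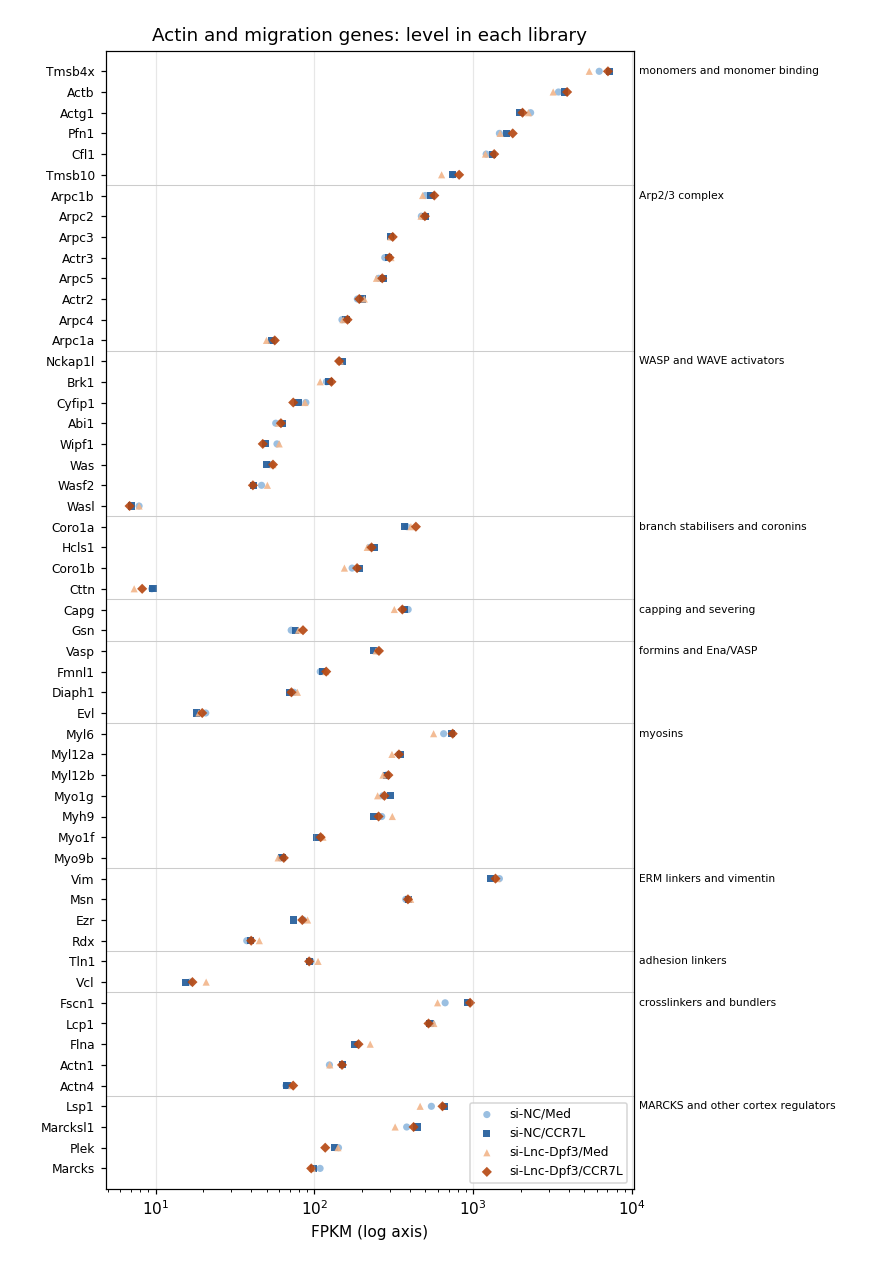
Level of each of the 54 genes in the 4 libraries, in FPKM on a log axis, with genes grouped by role and 1 point per library. Levels span from 6.86 FPKM for Wasl to 7222 FPKM for Tmsb4x, and the points of a gene lie close together compared with the distances between genes.

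Fscn1, which encodes fascin, the bundler of dendrites in mature dendritic cells, had the largest average CCR7L change of the 54 genes. It lies at chr5:142960355-142973189 (GRCm38). The window of 250 bases before to 50 bases after its start (RefSeq, GRCm38.p6, plus strand, chr5:142960105-142960404) is shown because Fscn1 carries the main result, with a TATAAA match in capitals that begins 31 bases before the start.

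Fscn1: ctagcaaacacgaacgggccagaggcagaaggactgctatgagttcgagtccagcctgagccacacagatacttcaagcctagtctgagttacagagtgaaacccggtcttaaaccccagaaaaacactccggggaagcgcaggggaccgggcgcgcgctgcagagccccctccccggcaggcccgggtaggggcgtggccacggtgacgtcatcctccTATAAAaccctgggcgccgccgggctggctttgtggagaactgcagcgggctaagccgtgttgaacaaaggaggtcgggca

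Fscn1 measured 665, 920, 596 and 956 FPKM. Both CCR7L libraries were above both Med libraries and the groups did not overlap. The gene was 1.38-fold higher with CCR7L under si-NC and 1.6-fold higher under si-Lnc-Dpf3. Averaged over both siRNAs, Fscn1 rose by 0.57 ± 0.10 on the log2(FPKM + 1) scale (SE; limma adjusted p = 0.0046). Its average difference between siRNAs was -0.05 ± 0.10 (SE; limma adjusted p = 0.84).

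The first question is which of the 54 genes respond to CCR7 ligands. In the average over both siRNAs, 3 members rose and 1 fell in limma's moderated test at an adjusted p of 0.05. The bundling genes Fscn1 and Actn1 and the leukocyte actin-binding gene Lsp1 rose, and Wipf1, which encodes the partner protein that stabilises WASP, fell. Among all 11041 genes tested, 2.93% were higher and 3.11% lower, beside 5.56% and 1.85% of the members. After scaling each library to the same total FPKM, 6 members and 349 genes were higher and 8 members and 551 genes lower. The members added were Tmsb4x, Myl6 and Marcksl1 as higher and Actg1, Wasf2, Cyfip1, Myh9, Ezr, Flna and Plek as lower. Without this scaling 324 genes were higher and 343 lower. An unadjusted p under 0.05 was found for 13 members and 1772 of all genes. The test replicates no group, since its error comes from the interaction of siRNA and stimulation and from spread borrowed across genes. None of the 4 calls held in fits that left out 1 library, where the siRNA is no longer in the model, or when genes with low values were kept, and without a mean-variance trend Fscn1 alone passed.

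Lsp1 encodes a filament-binding protein of leukocytes. It measured 545, 662, 463 and 640 FPKM, with the lowest level in si-Lnc-Dpf3/Med and no overlap between CCR7L and Med. Lsp1 rose by 0.37 ± 0.09 (SE, log2 scale; limma adjusted p = 0.031). Actn1 encodes alpha-actinin 1, which crosslinks antiparallel filaments. It measured 124, 150, 125 and 149 FPKM, and the Med values lay close together, as did the CCR7L values. Actn1 rose by 0.26 ± 0.06 (SE, log2 scale; limma adjusted p = 0.035). Actn4, its close relative, stayed between 66.2 and 73.5 FPKM, so Actn1 held 65.2%, 69%, 63.5% and 67% of their summed FPKM. Wipf1 measured 58.1, 49.4, 60 and 47.3 FPKM. Both CCR7L libraries were below both Med libraries, and Wipf1 fell by 0.28 on the log2 scale, with an SE of 0.06 (limma adjusted p = 0.024).

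**Figure D2:**
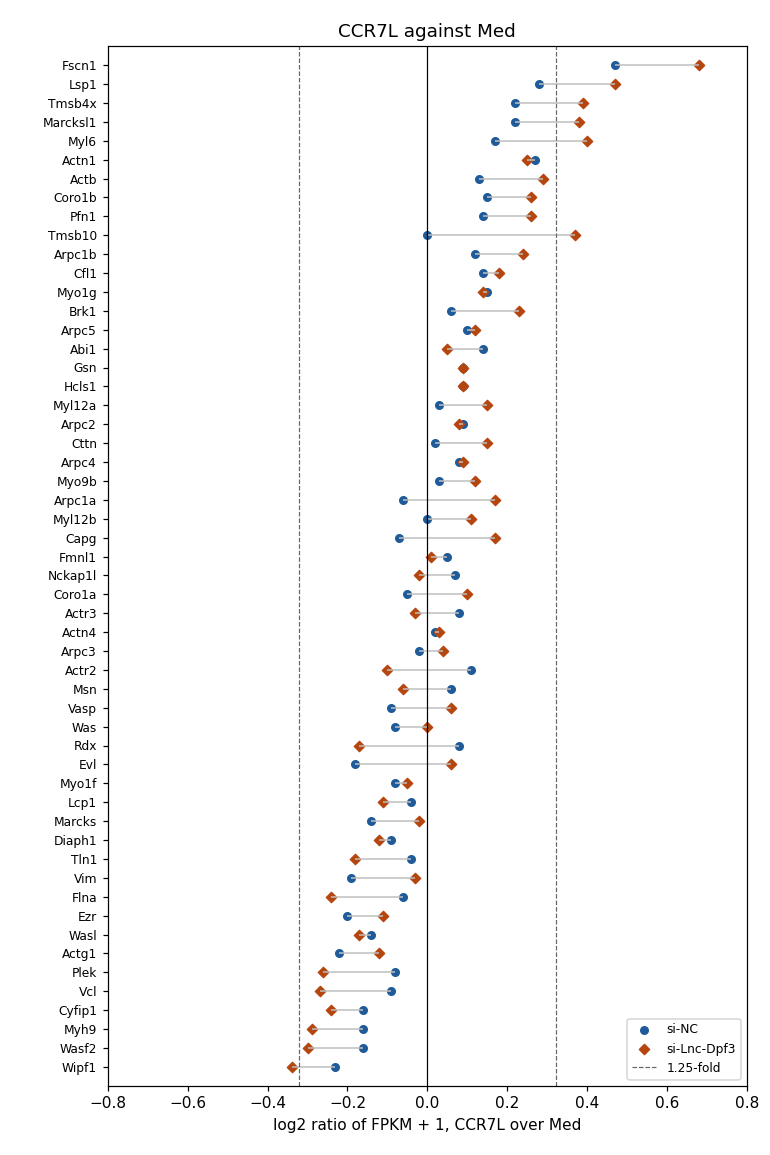
Log2 ratio of FPKM + 1, CCR7L over Med, for each member under si-NC (blue circles) and si-Lnc-Dpf3 (orange diamonds), ordered by the mean of both, with dashed lines at 25% higher and 20% lower. Fscn1 lies farthest to the right in both comparisons (0.47 and 0.68), and Wipf1 farthest to the left (-0.23 and -0.34).

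Within single comparisons, which carry no test, members at least 25% higher or 20% lower were counted, the same fold in either direction of FPKM + 1. Under si-NC only Fscn1 was that much higher with CCR7L, where 2.88% of all genes were, and no member was at least 20% lower, against 4.02% of all genes. Under si-Lnc-Dpf3, 6 members or 11.1% were that much higher with CCR7L, against 4.33% of all genes. They were Fscn1 (1.6-fold), Lsp1 (1.38-fold), Myl6 (1.32-fold), Tmsb4x (1.31-fold), Marcksl1 (1.31-fold) and Tmsb10 (1.29-fold). Wipf1 alone was at least 20% lower, at a ratio of 0.791, against 5.1% of all genes. These 2 comparisons share no library, and no replicate gives an error for the difference between them.

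Both CCR7L libraries lay above both Med libraries for 20 members or 37%, while 16.2% of all genes did so. For 12 members or 22.2% they lay below, against 21.5% of all genes. The genes above included the monomer-pool genes Actb, Cfl1, Pfn1 and Tmsb4x, the Arp2/3 subunit genes Arpc1b, Arpc2, Arpc4 and Arpc5, and the myosin light chain genes Myl6 and Myl12b. The genes below included Actg1, Wasl, Wipf1, Wasf2, Cyfip1, Diaph1, Myh9, Ezr, Vim, Tln1, Lcp1 and Plek. The members had a median log2 ratio of 0.026 with si-NC and of 0.062 with si-Lnc-Dpf3, beside -0.012 and -0.024 over all genes. With each library scaled to the same total FPKM the second median was -0.013, beside -0.093 over all genes. The sign of the members' median thus depends on the scaling. Members' CCR7L log2 ratios were also higher at higher mean FPKM. Spearman's correlation was 0.43 with si-NC and 0.50 with si-Lnc-Dpf3, beside 0.08 and 0.22 over tested genes with a known length. The members were chosen with earlier results of these data known. The part of that choice and of abundance in the shares above was not tested.

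The genes for free actin and its binding proteins were the most abundant members. Tmsb4x encodes thymosin beta 4, which sequesters actin monomers, and ranked 3 among all genes by mean FPKM. It measured 6211, 7222, 5378 and 7051 FPKM, and the CCR7L libraries were the 2 highest. The average CCR7L difference of Tmsb4x was 0.30 ± 0.20 (SE, log2 scale; limma adjusted p = 0.52). Pfn1 encodes profilin 1, which feeds monomers to growing filament ends. It measured 1462, 1614, 1477 and 1773 FPKM, with a CCR7L difference of 0.20 ± 0.12 (SE; limma adjusted p = 0.46). Cfl1 encodes cofilin 1, which severs older filaments. It measured 1207, 1329, 1194 and 1355 FPKM, with a CCR7L difference of 0.16 ± 0.11 (SE; limma adjusted p = 0.53). None of these 3 genes passed the test, although for each both CCR7L libraries were above both Med libraries. Tmsb4x did pass as higher after scaling to equal totals. With a trend on length and GC content removed, Tmsb4x and Cfl1 passed as higher.

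Tmsb10, the smaller relative of Tmsb4x, measured 747, 744, 632 and 815 FPKM. The si-NC libraries were nearly equal, while si-Lnc-Dpf3/Med was the lowest and si-Lnc-Dpf3/CCR7L the highest. Tmsb10 transcripts were the shortest of the 54, at 623 bases. Tmsb4x held 89.3% to 90.7% of the summed FPKM of both thymosins.

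The cytoplasmic actin genes had opposite CCR7L ratios. Actb measured 3441, 3760, 3187 and 3900 FPKM, and Actg1 measured 2298, 1968, 2228 and 2043 FPKM. Actb was thus higher in both CCR7L libraries and Actg1 lower in both. Neither passed the test, with an Actb difference of 0.21 ± 0.16 (SE; limma adjusted p = 0.59) and an Actg1 difference of -0.17 ± 0.13 (SE; limma adjusted p = 0.59). Actb held 60%, 65.6%, 58.9% and 65.6% of the summed actin FPKM, and the sum was 5739, 5728, 5415 and 5944 FPKM. The coding sequences of both genes are nearly identical, so reads may have been split wrongly between them and the single values are uncertain.

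**Figure D3:**
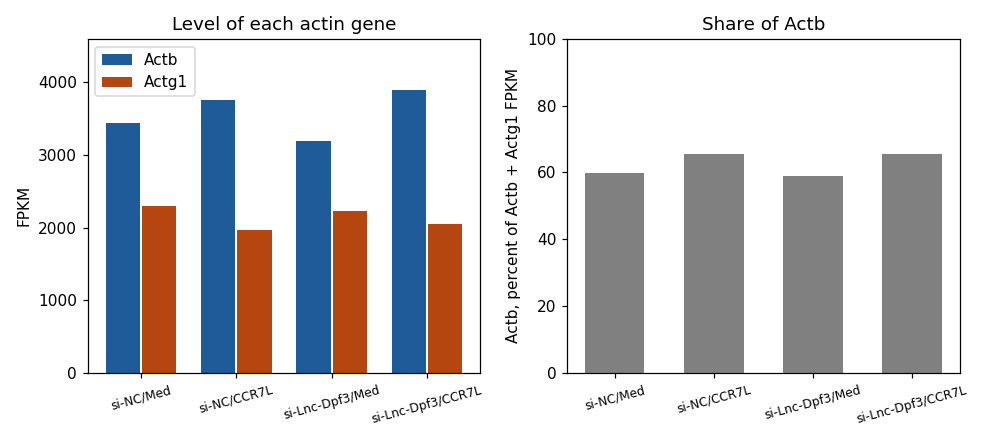
Left, FPKM of Actb and Actg1 in each of the 4 libraries, as bars from 0, and right, Actb as a percentage of their sum. The share of Actb is 60% and 58.9% in the Med libraries and 65.6% in both CCR7L libraries.

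No window around the start was available for Actb, so it was not searched. Actg1 is one of 4 members with a CArG box, the sequence bound by serum response factor, in that window. The actin genes are textbook targets of that factor, so these stretches are shown (RefSeq, GRCm38.p6, CArG box in capitals). The whole window is given for Actg1 (minus strand, chr11:120348446-120348745), where the box begins 90 bases before the start. For Arpc4 (plus strand, chr6:113377863-113377882), Myl6 (minus strand, chr10:128493040-128493069) and Vcl (plus strand, chr14:20929161-20929190) the match is given with up to 10 bases on each side. It begins 250 bases before the start of Arpc4 and 227 bases before the start of Vcl that RefSeq places at 20929398. Myl6 has 2 RefSeq starts, and its match begins 50 bases before the inner one at 128493009, which lies 877 bases inside the gene from the outer start.
Actg1: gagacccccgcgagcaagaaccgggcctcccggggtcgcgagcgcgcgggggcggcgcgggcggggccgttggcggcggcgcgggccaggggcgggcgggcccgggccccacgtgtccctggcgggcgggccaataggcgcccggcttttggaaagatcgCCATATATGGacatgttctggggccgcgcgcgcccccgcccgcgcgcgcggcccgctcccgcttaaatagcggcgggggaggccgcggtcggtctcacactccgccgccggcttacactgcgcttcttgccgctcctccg
Arpc4: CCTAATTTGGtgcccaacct
Myl6: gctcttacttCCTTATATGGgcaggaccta
Vcl: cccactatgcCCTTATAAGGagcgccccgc

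Windows were found for 46 of the 54 members and for 8942 tested genes. Actb, Lsp1 and Cttn were among the members without a window and were not searched. Both strands of every window of a gene were searched, some genes having several starts. The CArG box matched in 8.7% of these members and 1.45% of these genes. TATAAA matched in 8.7% and 8.42%, the 4 members being Fscn1, Hcls1, Myh9 and Vim. GGGCGG matched in 71.7% and 68.6%, and an NF-kappaB site in 21.7% and 12.3%. The 4 members with a CArG box did not share a CCR7L direction. Their average log2 differences were -0.17 for Actg1, 0.09 for Arpc4, 0.29 for Myl6 and -0.18 for Vcl, and none passed the test.

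The Arp2/3 complex, which nucleates filament branches, showed little difference in any of its 8 subunit genes. Their summed level was 2197, 2319, 2208 and 2350 FPKM, and mean levels ran from 53.9 FPKM for Arpc1a to 522 FPKM for Arpc1b. Arpc2 measured 471, 501, 469 and 496 FPKM, with the CCR7L libraries the 2 highest. Its CCR7L difference was 0.08 ± 0.08 (SE, log2 scale; limma adjusted p = 0.69). The 8 average CCR7L differences ran from 0.00 for Actr2 to 0.18 for Arpc1b, and none passed the test. Arpc1b did pass as higher with a trend on length and GC content removed. Arpc1a, the minor form of the ARPC1 subunit, held 8.99% to 10.1% of the summed Arpc1a and Arpc1b level.

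Activators of Arp2/3 include WASP, its relative N-WASP and the WAVE complex. Was encodes the WASP of blood cells and measured 52.9, 49.9, 54.8 and 54.9 FPKM. Its CCR7L difference was -0.04 ± 0.06 (SE; limma adjusted p = 0.82). Wasl, which encodes N-WASP, was the lowest member at 7.87, 7.03, 7.87 and 6.86 FPKM, and Was held 87% to 88.9% of their sum. Among the 8 genes of the group, Wipf1 fell and the other 7 did not pass. The WAVE genes Wasf2 and Cyfip1 had CCR7L differences of -0.23 ± 0.07 (SE; limma adjusted p = 0.077) and -0.20 ± 0.06 (SE; limma adjusted p = 0.098), and their CCR7L libraries were below their Med libraries.

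Branch stabilisers and coronins act after nucleation. Coro1a encodes the main coronin of leukocytes and measured 382, 369, 405 and 436 FPKM. Its CCR7L difference was 0.03 ± 0.08 (SE; limma adjusted p = 0.92). Coro1b, which measured 154 to 192 FPKM, had a CCR7L difference of 0.21 ± 0.07 (SE; limma adjusted p = 0.12). The blood-cell cortactin relative Hcls1 stood far above cortactin itself, and Cttn held only 3.29% to 4.08% of their sum. No member of this group, of the cappers Capg and Gsn, or of the elongators Vasp, Evl, Diaph1 and Fmnl1 passed the CCR7L test.

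The myosins showed CCR7L differences of both signs. Myh9 encodes the heavy chain of non-muscle myosin IIA, the motor that contracts the cell rear. It measured 265, 238, 309 and 254 FPKM, with the highest level in si-Lnc-Dpf3/Med. Its CCR7L difference was -0.22 ± 0.07 (SE; limma adjusted p = 0.12). Myl6, which encodes the essential light chain of the same motor, measured 651, 734, 563 and 743 FPKM. Its CCR7L difference was 0.29 ± 0.09 (SE; limma adjusted p = 0.12), so neither chain passed the test. The regulatory light chain genes Myl12a and Myl12b are near-identical and their single values are uncertain, while their sum was 625, 634, 578 and 633 FPKM. The unconventional myosins Myo1f, Myo1g and Myo9b had CCR7L differences between -0.06 and 0.15.

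Proteins of the cortex link filaments to the membrane. Msn, the ERM linker gene with the highest FPKM of the 3, measured 376, 393, 404 and 388 FPKM, and its CCR7L difference was 0.00 ± 0.08 (SE; limma adjusted p = 0.99). Ezr and Rdx were lower, with means of 83.5 and 40.6 FPKM. Vim, which encodes the intermediate filament vimentin, measured 1461, 1284, 1414 and 1381 FPKM, with a CCR7L difference of -0.11 ± 0.11 (SE; limma adjusted p = 0.70). Marcksl1 encodes a membrane-bound filament regulator and measured 381, 443, 322 and 421 FPKM. Its CCR7L difference was 0.30 ± 0.08 (SE; limma adjusted p = 0.053), just outside the threshold. Marcksl1 passed with either scaling and with a pseudocount of 0.1. Its relative Marcks stood at 95.5 to 109 FPKM, and its share of the pair was 22.2% and 23.1% in the Med libraries against 18.2% and 18.5% in the CCR7L libraries. Lcp1, the gene of the leukocyte bundler L-plastin, measured 550, 534, 565 and 523 FPKM, with a CCR7L difference of -0.08 ± 0.08 (SE; limma adjusted p = 0.73).

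The second question is what depletion of lnc-Dpf3 does to the same genes. In the average over both stimulations no member passed limma's test in either direction, while 2.33% of all genes were higher and 2.04% lower with si-Lnc-Dpf3. At an unadjusted limma p under 0.05 there were 4 members, Cttn, Vcl, Gsn and Flna, and 1927 of all 11041 genes. The members' median average difference was 0.003, beside 0.015 over all genes, and it was -0.025 with median-ratio scaling, beside -0.011. When each library was scaled to the same total FPKM, Coro1a and Flna passed as higher, and with median-ratio scaling Cttn passed as lower.

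Cttn encodes cortactin, which stabilises branches. It measured 9.46, 9.63, 7.33 and 8.23 FPKM, and both si-Lnc-Dpf3 libraries were below both si-NC libraries. The average difference of Cttn was -0.27 ± 0.09 (SE, log2 scale; limma adjusted p = 0.13). Vcl encodes vinculin, which links integrin adhesions to actin. It measured 16.5, 15.4, 20.8 and 17.1 FPKM, with both si-Lnc-Dpf3 libraries higher. The average difference of Vcl was 0.23 ± 0.08 (SE; limma adjusted p = 0.14). Flna, the gene of the crosslinker filamin A, measured 187, 178, 225 and 190 FPKM, with a difference of 0.18 ± 0.07 (SE; limma adjusted p = 0.22). Gsn, the gene of the severing protein gelsolin, measured 71.4, 75.9, 79.5 and 84.8 FPKM, with a difference of 0.15 ± 0.06 (SE; limma adjusted p = 0.21). Vcl, Flna and Gsn were thus above si-NC in both stimulations, without passing the test. With a trend on length and GC content removed, Vcl and Coro1a passed as higher and Cttn, Capg, Myo1g and Marcksl1 as lower.

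In the single comparison of Med libraries, no member was at least 25% higher in FPKM + 1 with si-Lnc-Dpf3, where 5.26% of all genes were. Vcl, at 16.5 and 20.8 FPKM, fell just under that limit and passed it with a pseudocount of 0.1. Cttn alone was at least 20% lower, at a ratio of 0.796, against 4.22% of all genes. With CCR7L no member was past either limit, against 2.83% of all genes higher and 2.05% lower. Both si-Lnc-Dpf3 libraries lay above both si-NC libraries for 10 members or 18.5%, below the 24.8% of all genes. For 4 members or 7.41%, Cttn, Capg, Myl12a and Marcks, they lay below, against 15.7% of all genes.

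Other members of wide use in the field did not pass the test between siRNAs either. Coro1a differed by 0.16 ± 0.08 (SE; limma adjusted p = 0.33), Myh9 by 0.16 ± 0.07 (SE; limma adjusted p = 0.29) and Was by 0.09 ± 0.06 (SE; limma adjusted p = 0.50). Msn differed by 0.04 ± 0.08 (SE; limma adjusted p = 0.84), Arpc2 by -0.01 ± 0.08 (SE; limma adjusted p = 0.97) and Vim by 0.03 ± 0.11 (SE; limma adjusted p = 0.94). Tmsb4x differed by -0.12 ± 0.20 (SE; limma adjusted p = 0.81), Actb by -0.03 ± 0.16 (SE; limma adjusted p = 0.96), Pfn1 by 0.08 ± 0.12 (SE; limma adjusted p = 0.81) and Cfl1 by 0.01 ± 0.11 (SE; limma adjusted p = 0.99). Coro1a was among the members that passed as higher after scaling to equal totals, and again with a trend on length and GC content removed. A p above the threshold does not show that the levels were equal.

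**Figure D4:**
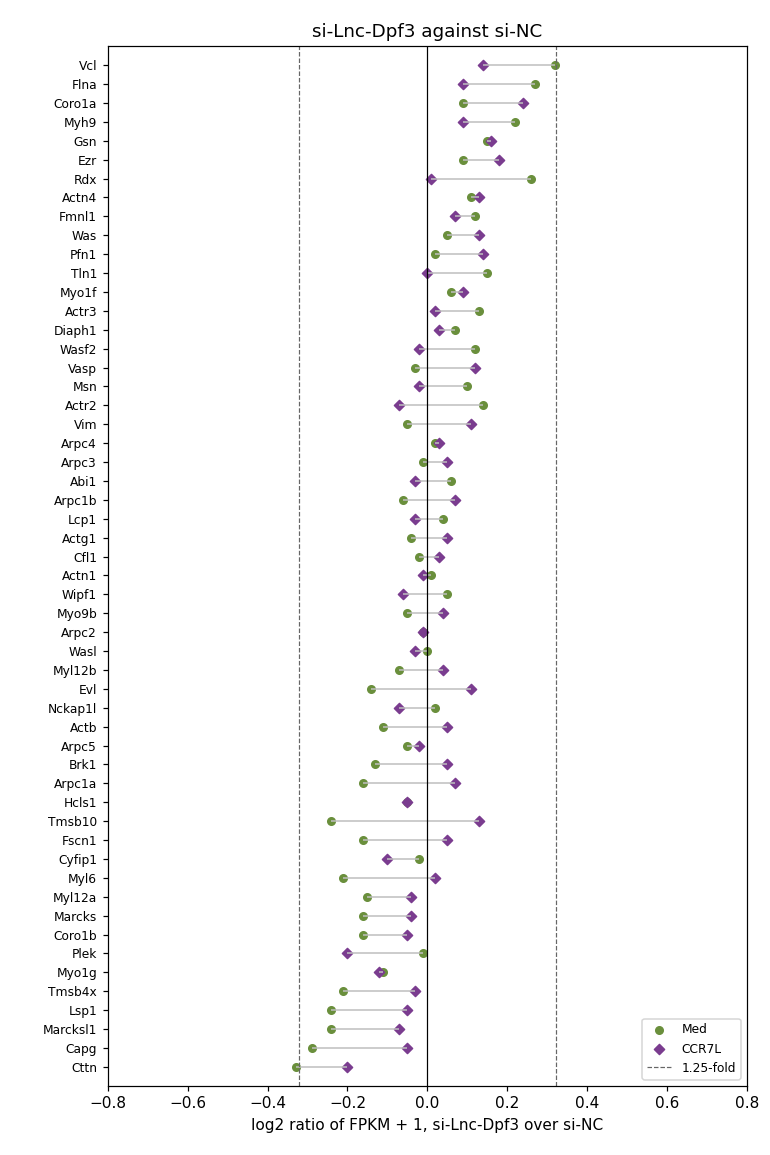
Log2 ratio of FPKM + 1, si-Lnc-Dpf3 over si-NC, for each member in Med (green circles) and with CCR7L (purple diamonds), ordered by the mean of both, with dashed lines at 25% higher and 20% lower. The ratios run from -0.33 for Cttn to 0.32 for Vcl, both in Med, and those with CCR7L lie between -0.20 and 0.24.

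Markers of other cells differed between the siRNAs. Of 13 neutrophil markers tested, 9 rose with si-Lnc-Dpf3 in the limma test, beside 2.33% of all genes, and of 10 cell cycle markers 8 rose, their sum being 205, 203, 286 and 256 FPKM. Of 9 dendritic cell markers, Itgax, Cd83 and Cd86 fell with si-Lnc-Dpf3. The part of these markers in the members' values was not tested, and the marker lists were chosen with earlier results of these data known. With CCR7L no neutrophil or cell cycle marker passed the test, while the dendritic cell markers H2-Ab1, H2-Aa and Cd74 rose and Zbtb46, Cd83 and Cd86 fell.

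Members' ratios varied with transcript length, most in the comparisons that hold the si-Lnc-Dpf3/Med library. Across the 54 genes, which share libraries and depth, Spearman's correlation of the CCR7L log2 ratio with length was -0.34 with si-NC and -0.69 with si-Lnc-Dpf3. Over the 10863 tested genes with a known length it was 0.01 and -0.46. For si-Lnc-Dpf3 over si-NC it was 0.60 in Med and -0.11 with CCR7L, beside 0.36 and -0.12 over all genes. Under si-Lnc-Dpf3 the CCR7L ratio was above 0 for 24 of the 27 shorter members and 9 of the 27 longer ones. Of the 6 members at least 25% higher there, Tmsb10, Myl6, Tmsb4x, Marcksl1 and Lsp1 are among the shorter 27, and Fscn1, of 2675 bases, is the shortest of the longer 27. The part of length in the single-library ratios was not tested. With a trend on length and GC content removed, 11 members passed as higher and 4 as lower with CCR7L. Fscn1, Lsp1, Actn1 and Wipf1 were again among them. The others were Actb, Cfl1, Tmsb4x, Arpc1b, Coro1b, Myl6, Myo1g and Marcksl1 as higher and Actg1, Wasf2 and Myh9 as lower.

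**Figure D5:**
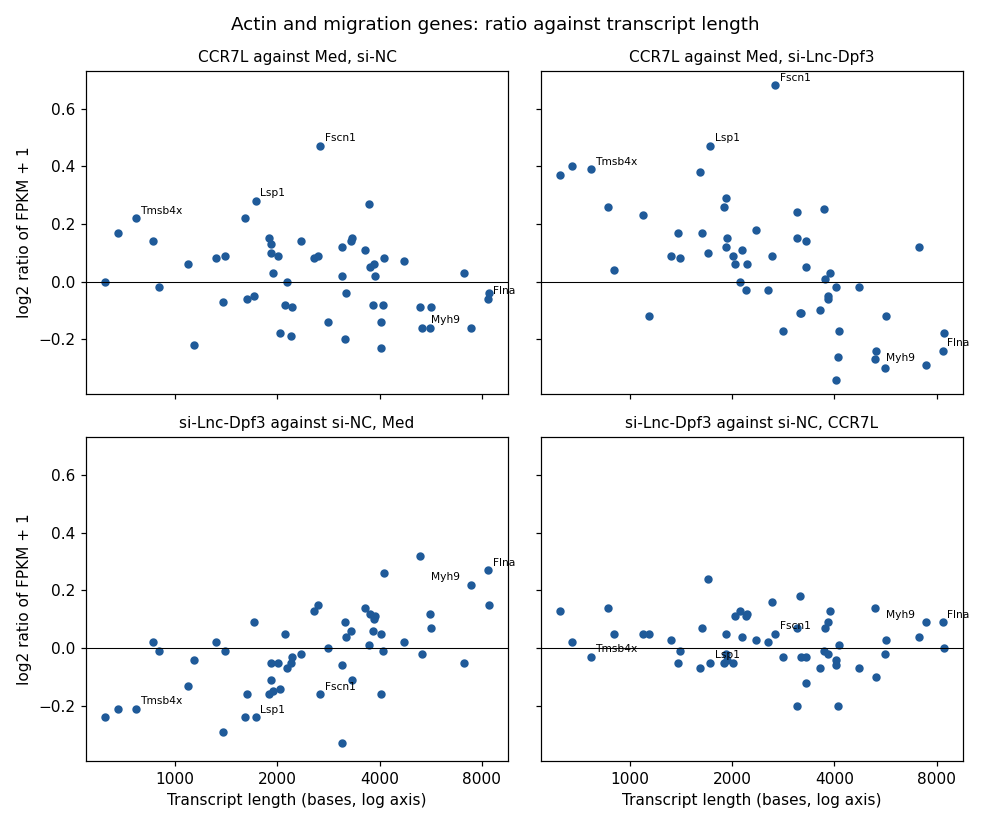
Log2 ratio of each of the 54 members against its transcript length in bases (log axis), in 4 panels for the 4 comparisons of single libraries. Short transcripts such as Tmsb4x lie above 0 and long ones such as Myh9 and Flna below 0 for CCR7L under si-Lnc-Dpf3, with the reverse order for si-Lnc-Dpf3 over si-NC in Med.

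Other genes of the actin pathway were described from lists of further actin regulators, serum response factor genes and tubulins. The lists were chosen with earlier results of these data known, so their shares beside all genes are descriptive only. Of 40 further actin regulators, 4 rose and 4 fell with CCR7L, beside 2.93% and 3.11% of all genes. Aif1, the gene of a calcium-binding actin bundler, measured 8.96, 39.5, 8.27 and 33.7 FPKM and rose by 1.96 ± 0.07 (SE, log2 scale; limma adjusted p = 1.1e-07). Swap70, the gene of a Rac-linked filament-binding protein, measured 44.3, 72.1, 47.1 and 65.1 FPKM and rose by 0.57 ± 0.07 (SE; limma adjusted p = 5.4e-04). Twf2 (0.26) and Arpc5l (0.30) also rose. The tropomyosin gene Tpm1 (-0.47), the zyxin gene Zyx (-0.47), the drebrin gene Dbn1 (-0.62) and the adducin gene Add3 (-0.31) fell. Between siRNAs 1 of the 40 passed as higher, where 2.33% of all genes did. This was Parvg, the gene of an adhesion protein of blood cells, at 0.28 ± 0.06 (SE; limma adjusted p = 0.038). Without the mean-variance trend or without the filter, none of the 40 passed as higher.

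Of 9 tested genes of the serum response factor list, which include the members Actb, Actg1 and Vcl, Mkl1 alone passed. Mkl1 encodes the coactivator that senses free actin and measured 57.5, 33.5, 54.3 and 34.4 FPKM. Both CCR7L libraries were far below both Med libraries, and Mkl1 fell by 0.70 on the log2 scale, with an SE of 0.06 (limma adjusted p = 7.3e-05). Srf itself measured 18.4, 16.3, 19.4 and 18 FPKM and did not pass (-0.13 ± 0.07, SE; limma adjusted p = 0.41). Of 12 tubulin genes, 4 rose with CCR7L, namely Tubb2b (0.89), Tubb2a (0.87), Tubb6 (0.60) and Tuba1c (0.26), and none fell, beside the same shares of all genes. With si-Lnc-Dpf3 the tubulin genes Tuba4a (0.38), Tuba8 (0.35) and Tubb4b (0.28) rose, where 2.33% of all genes did. None of the 12 passed as higher between siRNAs without the mean-variance trend, without the filter or with siRNA as the only factor. Tubulin genes are near-identical, so their single values are uncertain.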

How the data were processed

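RNA was extracted with TRIzol and sequenced on a BGISEQ-500, per the labels' protocols. The authors deposited FPKM values with 2 decimals for 18021 genes. Bowtie2, RSEM and the build GRCm38 are named in the submitters' processing notes without versions, and no settings are stated in the sources used here. Column names (nc or si, un or tr) were read as the siRNA and the stimulation. Entrez numbers matched a RefSeq table of GRCm38.p6 for 17892 genes, and 26 symbols turned into dates were restored. Transcript lengths and GC content are medians over GENCODE transcripts linked to each gene, available for all 54 members.

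Depth was judged from the spacing of low FPKM values. Of 57 to 64 values per library, 66.1% to 72.4% came within 0.1 of whole reads at the depth that gave the largest share. Chance gives 20% at a fixed depth, and more at the best of many depths tried. Reads were therefore not recovered and no count test was run. Values were analysed as log2(FPKM + 1) over 11041 genes whose mean reached 1 FPKM; this scale understates changes of low genes. limma 3.58.1 (R 4.3.3) fitted siRNA and stimulation as additive factors with a variance trend on mean level. Benjamini-Hochberg adjustment covered all these genes, with a threshold of 0.05. The fit has 1 residual degree of freedom (prior median 9.63), so p-values do not measure the spread between cultures. On data simulated with the spread that the fit assumes, the fit recovered planted changes. The share of false calls varied between draws and could exceed the nominal rate. Such data hold no trend on length and no scaling difference between libraries, and they cannot check the assumed spread. All planted changes were larger than the CCR7L differences of Lsp1, Actn1 and Wipf1. Comparisons of single libraries carry no test, and members at least 25% higher or 20% lower were counted.

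The members and gene lists were chosen with earlier results of these data known, and 2 of the lists are not reported here. Named genes followed a rule: FPKM in every library for members past the test, past those limits in a comparison, or among the 10 highest, with test values for members past the test and 11 fixed members. Values of other members, and of Srf, Ccr7, Cd74 and Zbtb46, were added after they were seen. Alternatives were 2 scalings, a pseudocount of 0.1, no filter, no variance trend, a trend on length and GC content removed, the factor alone, and leaving out each library.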

Additional observations from a re-analysis of the deposited data

Results flagged for a closer look

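Tmsb10, the gene of thymosin beta 10, had a CCR7L log2 ratio of -0.004 in si-NC cells and 0.366 in cells given si-Lnc-Dpf3. It stands out because the single-library ratios have opposite signs and only the second exceeds a 25% increase. The first value is close to 0, and the difference between the responses was not tested, since each group has 1 library. Tmsb10 has the shortest transcripts of the 54 genes, and its lowest level, 632 FPKM, was in si-Lnc-Dpf3/Med.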

How the results depend on the processing

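The counts of genes past limma's test depended on the settings tried. For CCR7L, 3 members were higher and 1 lower (all genes 324 and 343). Scaling to equal totals gave 6 and 8 (all genes 349 and 551), median-ratio scaling gave 516 of all genes higher, and removing a trend on length and GC content gave 11 and 4 (all genes 703 and 519). Without the mean-variance trend 1 member, Fscn1, was higher and 0 lower. Without the filter 0 members and 0 genes passed in either direction, while 7 members and 2036 genes had an unadjusted p under 0.05. With stimulation as the only factor 0 members passed (8 unadjusted), with 102 genes higher and 136 lower. Leaving out each library in that fit gave 0 to 0 members in either direction, 1 to 11 of them at an unadjusted p under 0.05, with 40 to 96 genes higher and 49 to 91 lower.

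For siRNA, with 0 members each way (all genes 257 higher and 225 lower), equal totals gave 2 members higher (all genes 503 and 347), median-ratio scaling 1 lower (434 of all genes lower), and the length and GC removal 2 higher and 4 lower (all genes 749 and 709). Without the mean-variance trend 43 genes were higher and 34 lower. Without the filter 0 genes passed each way (1939 unadjusted). With siRNA as the only factor 0 genes were higher and 1 lower (1152 unadjusted), and without each library in turn 0 to 0 genes passed each way (520 to 1445 unadjusted). Among single comparisons, equal totals changed the members at least 25% higher and 20% lower with CCR7L under si-Lnc-Dpf3 from 6 and 1 to 3 and 5, and median-ratio scaling gave 0 lower. For si-Lnc-Dpf3 in Med, equal totals gave 1 higher and 0 lower, median-ratio scaling 2 lower and a pseudocount of 0.1 gave 1 higher. For Fscn1, Lsp1, Actn1 and Wipf1 the CCR7L and Med libraries did not overlap. Fits on unscaled values, with or without each library, therefore could not change the sign of their CCR7L difference. With both scalings and with the length and GC removal these genes kept that sign too. The members' median did not: for CCR7L it was 0.029, and -0.012 with equal totals, and for siRNA it was 0.003, and -0.025 with median-ratio scaling, -0.010 with the length and GC removal, and -0.014 to 0.040 without each library. The cause of these changes was not tested. Fits with one factor leave the other factor in the residual, and without a library the lone one left is assumed to vary like the other pair. The additive fit itself compares libraries within each siRNA or stimulation. No paired analysis was possible by replicate number, because each group has 1 library.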
